A study of Mus musculus with 9 samples.

Results

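The genes that carry pyruvate into the mitochondrion and run the tricarboxylic acid cycle were followed through embryoid body differentiation of mouse embryonic stem (ES) cells. They were 35 genes, taken as a list of known enzymes, carriers and regulators and not by their signal, among 15016 genes measured. The list was chosen with earlier results of these data known. Each was found through the RefSeq accession of its array probes. All 35 were present, by 47 probes in all, and each probe lay well above background on all 9 arrays, so that no member was left out by a filter on low values. None was saturated.

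The study took 3 ES lines whose labelled genotypes are PKm1KI, PKm2KI and wild type. The series title names the knock-ins as isoforms M1 and M2 of pyruvate kinase, the enzyme that makes pyruvate at the end of glycolysis. RNA came from undifferentiated cells kept with leukemia inhibitory factor (LIF), called day 0, and from embryoid bodies grown as floating aggregates without LIF for 3 or 7 days. Each line and day was measured on 1 one-colour array, 9 in all. The undifferentiated cells of every line thus shared LIF, and every embryoid body shared its withdrawal. Sources used here give no strain, number of clones or feeder use. With 1 line per genotype, genotype cannot be told apart from other differences between the lines. The p-values below set a difference against how far these 9 arrays depart from a course over the days common to all lines. With 1 array per line and day, a course particular to 1 line counts there as error. They do not measure the spread between cultures, since nothing in the labels says that any array stands for an independent culture.

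Pyruvate crosses the inner mitochondrial membrane through a carrier built from Mpc1 and Mpc2, and the pyruvate dehydrogenase complex turns it into acetyl-CoA. Pyruvate dehydrogenase kinases phosphorylate the complex and switch it off, and its phosphatases switch it back on, so that these enzymes set how much pyruvate is oxidised and how much is left for lactate. Acetyl-CoA joins oxaloacetate to form citrate, and the cycle oxidises citrate through 2-oxoglutarate and succinate back to oxaloacetate. Pyruvate carboxylase feeds the cycle with oxaloacetate, and malic enzymes draw malate off to pyruvate while making NADPH or NADH. Mouse pluripotent cells change their use of glycolysis and respiration as they leave the naive state.

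Promoter sequences are shown for 6 members on which the results below turn: Mdh1, Mdh2, Sdhd and Pdk3 for their day 3 signal, Suclg1 for its difference between lines, and Me1 for its signal on a single array. Each is the 250 bases before the transcription start, read 5′ to 3′ on the gene's strand, from RefSeq on GRCm38.p6. RefSeq entries were matched for 31 of the 35 members. Me1 has 2 starts listed, of which 1 is shown. Capitals mark ACGTG, the core of the hypoxia response element, which lay 199 bases before the start in Mdh1 and 53 bases before it in Pdk3.
Mdh1, chr11:21571935-21572184, minus strand: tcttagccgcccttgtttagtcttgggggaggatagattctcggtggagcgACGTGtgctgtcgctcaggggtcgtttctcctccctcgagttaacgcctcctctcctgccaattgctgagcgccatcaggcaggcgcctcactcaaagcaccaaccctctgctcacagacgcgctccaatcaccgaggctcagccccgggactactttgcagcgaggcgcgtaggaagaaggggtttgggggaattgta
Mdh2, chr5:135778399-135778648, plus strand: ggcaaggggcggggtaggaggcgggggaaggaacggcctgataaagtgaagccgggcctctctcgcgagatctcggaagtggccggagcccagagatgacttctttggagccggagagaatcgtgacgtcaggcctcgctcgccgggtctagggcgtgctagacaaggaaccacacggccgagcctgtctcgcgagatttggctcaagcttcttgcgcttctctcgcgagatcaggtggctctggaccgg
Sdhd, chr9:50603850-50604099, minus strand: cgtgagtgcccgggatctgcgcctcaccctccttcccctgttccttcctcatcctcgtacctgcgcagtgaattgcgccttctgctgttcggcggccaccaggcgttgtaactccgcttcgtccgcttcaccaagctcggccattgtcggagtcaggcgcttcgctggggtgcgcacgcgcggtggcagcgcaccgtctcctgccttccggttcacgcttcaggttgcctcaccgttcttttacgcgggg
Suclg1, chr6:73248255-73248504, plus strand: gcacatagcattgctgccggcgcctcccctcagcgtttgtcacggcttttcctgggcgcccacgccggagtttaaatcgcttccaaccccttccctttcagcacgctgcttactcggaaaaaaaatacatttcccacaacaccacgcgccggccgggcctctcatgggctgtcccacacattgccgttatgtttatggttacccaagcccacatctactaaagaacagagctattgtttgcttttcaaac
Pdk3, chrX:93832151-93832400, minus strand: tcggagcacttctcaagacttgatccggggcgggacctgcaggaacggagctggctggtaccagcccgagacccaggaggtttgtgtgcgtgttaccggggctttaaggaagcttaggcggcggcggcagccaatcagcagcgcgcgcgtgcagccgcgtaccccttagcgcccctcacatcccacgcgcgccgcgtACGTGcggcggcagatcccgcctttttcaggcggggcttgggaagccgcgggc
Me1, chr9:86695915-86696164, minus strand: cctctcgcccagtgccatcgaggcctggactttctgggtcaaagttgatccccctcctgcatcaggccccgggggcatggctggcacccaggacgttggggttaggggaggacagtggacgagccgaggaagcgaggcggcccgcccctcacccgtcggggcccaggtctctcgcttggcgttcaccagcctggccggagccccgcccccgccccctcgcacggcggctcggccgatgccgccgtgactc

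None of the other 4 sequences shown held any of the 6 motifs searched on both strands. Over the 31 member promoters, ACGTG occurred in 9 (29.0%), against 16.5% of all 27025 promoters of the same length, and the 9 were those of Idh3g, Mdh1, Ogdh, Pcx, Pdhb, Pdk2, Pdk3, Pdp2 and Sdha. Its longer form, the E-box CACGTG bound by Myc family factors, was present in 3 (9.68%) against 6.04% of all promoters, and every CACGTG is also counted as ACGTG. The antioxidant response core TGACNNNGC occurred in 3 members, Dlst, Idh3g and Sucla2 (9.68%), against 10.1% of all promoters. The oestrogen-related receptor site TNAAGGTCA, the NRF1 core TGCGCATGC and the ETS site CCGGAAGT were in no member promoter, and in 1.13%, 1.34% and 2.92% of all promoters. These are matches of letters, and no binding was measured.

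The arrays had 53.4 to 60.9% of probes well above background and correlations of 0.892 to 0.984 between them. They lay on 3 slides. Slide 1 held 5 arrays (PKm1KI day 3, PKm2KI days 0 and 3, wild type days 0 and 7), slide 2 held 3 (PKm1KI days 0 and 7, wild type day 3), and slide 3 held only the PKm2KI day 7 array. All 8 pluripotency markers were well above background on every array, with summed signals between 180701 on the PKm1KI day 7 array and 451519 on the PKm1KI day 0 array. The 10 visceral endoderm markers summed to 524166 on the PKm1KI day 7 array, 6810.74 on the PKm2KI day 7 array, 10822.6 on the wild type day 7 array and 4027.91 to 5320.57 on the 6 earlier arrays, with 10, 9, 10 and 5 to 7 of 10 well above background. Fibroblast markers summed to 19386.8, 5337.12 and 19466.8 on day 0 in PKm1KI, PKm2KI and wild type cells, to 1200.24, 869.858 and 1947.8 on day 3, and to 6513.38, 630.441 and 4186.71 on day 7, with 6 to 9 of 10 well above background. The fibroblast list was not uniform on day 7 in PKm1KI and wild type cells. Col1a1, Col3a1 and Postn lay above day 0 in both lines, and Col1a2 in PKm1KI only. Dcn, Mgp, Lum, Thy1, Fbln2 and Pdgfrb lay below day 0 in both. Cardiac markers ranged from 599.158 to 1930.5, blood and endothelial markers from 4404.04 to 6780.84, and neural markers from 4075.19 to 9738.89. These are bulk samples, so fewer cells of a type and less RNA per cell cannot be told apart. The part of these cell mixtures in the results below was not tested.

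The main comparison by time asked how the pathway's transcripts differed between the undifferentiated state and each stage of embryoid body culture. A group of members was higher on day 3 than on day 0 in all 3 lines and lower again on day 7. In all, 15 of the 35 members (42.9%) were higher on day 3 in every line, beside 33.6% of all genes. The genes named here were picked from them by their own signals. The group was led by the cytosolic malate dehydrogenase Mdh1 and its mitochondrial counterpart in the cycle, Mdh2. With them went the NAD-linked isocitrate dehydrogenase subunit Idh3a and the succinate dehydrogenase anchor Sdhd. The kinases Pdk3 and Pdk1 had the same shape. Mitochondrial Idh2 ran the opposite way, with its lowest signal on day 3. These directions held for the 6 genes of this shape and for Idh2 on day 7 against day 3 in all alternatives run. Many of those settings, such as the floors, filters and moderation, leave a member's difference unchanged and could not turn it. The genes were also picked on these same arrays, so the kept directions are no separate support. No member passed the test in any comparison.

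Signals are given as log2 of the scaled processed signal, on which a difference of 1 is a 2-fold change. An additive limma model of line and day was fitted to all 15016 genes, and adjusted p is by Benjamini and Hochberg over all of them. Between day 3 and day 0, 608 genes (4.05%; 1.85% higher and 2.2% lower) passed an adjusted p of 0.05, and 0 of the 35 members did. At an unadjusted p under 0.05 there were 9 members (25.7%), beside 26.2% of all genes. All 9 were higher on day 3, while 16.1% of all genes were higher and 10.1% lower at that level. On 13 members every day 3 array lay above every day 0 array (21.9% of all genes), and on 3 every day 3 array lay below (14.3%). Of the members, 22 were higher (62.9%, beside 56.8% of all genes) and 13 lower. The members' median difference was 0.22, beside 0.09 over all genes. The split was 18 to 17 with quantile normalization, also after normexp background correction, and 19 to 16 when the percentile was taken over probes detected on all arrays, which moved the median of all genes to -0.08 and that of the members to 0.05. The result was close to the threshold and depended on single arrays: without the PKm1KI day 7 array 2 members passed (Pdk3 and Mdh1), and without the PKm2KI day 7 array 4 did (Pdk3, Idh1, Idh3a and Mdh1). Leaving out a line took the median of the members to 0.07 (without wild type), 0.24 (without PKm1KI) and 0.26 (without PKm2KI).

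Between day 7 and day 3 no gene of the 15016 passed (0%), and none of the members, while 4551 genes (30.3%) had an unadjusted p under 0.05. Of the members 11 did, 10 of them lower on day 7 (18.8% of all genes lower) and 1 higher (11.5% higher). Every day 7 array lay below every day 3 array on 13 members (21.6% of all genes) and above on 2 (10.1%). In all 3 lines 20 members were lower on day 7 (33% of all genes). By the fitted difference 31 of 35 members were lower on day 7 and 4 higher (11.4%, beside 41.9% of all genes higher). The members' median was -0.41, beside -0.13 over all genes. The split became 25 lower and 10 higher with quantile normalization (median -0.14), 27 and 8 with the percentile over detected probes (median -0.22, beside 0.07 over all genes), and 26 and 9 after normexp (median -0.09). The median over members within a line was -0.69 in PKm1KI, -0.10 in PKm2KI and -0.55 in wild type cells. With the slide as a block the PKm2KI day 7 array, alone on its slide, no longer counts. That fit of 8 arrays called 981 genes and 0 members, and it left 30 members lower and 5 higher. Without the PKm2KI line 1 member passed (Idh3a), and without its day 7 array 4 did (Idh3a, Sdhd, Mdh1 and Me1).

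Between day 7 and day 0 fewer genes passed, 14 (0.0932%; 0.00666% higher and 0.0866% lower), and 0 members, while 1 member (Pdha1, lower) had an unadjusted p under 0.05, against 14.3% of all genes (7.14% lower). On day 7, 12 members were higher (34.3%, beside 46.6% of all genes) and 23 lower. The members' median was -0.07, beside -0.04 over all genes. The split was 9 to 26 with the slide as a block and 18 to 17 without the PKm1KI day 0 array, which turned the median to 0.03. On 1 member every day 7 array lay above every day 0 array (6.85% of all genes), and on 4 every one lay below (8.93%). Between these days 2 within-slide pairs exist, with medians over the members of -0.33 in PKm1KI and -0.02 in wild type cells.

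**Figure D1:**
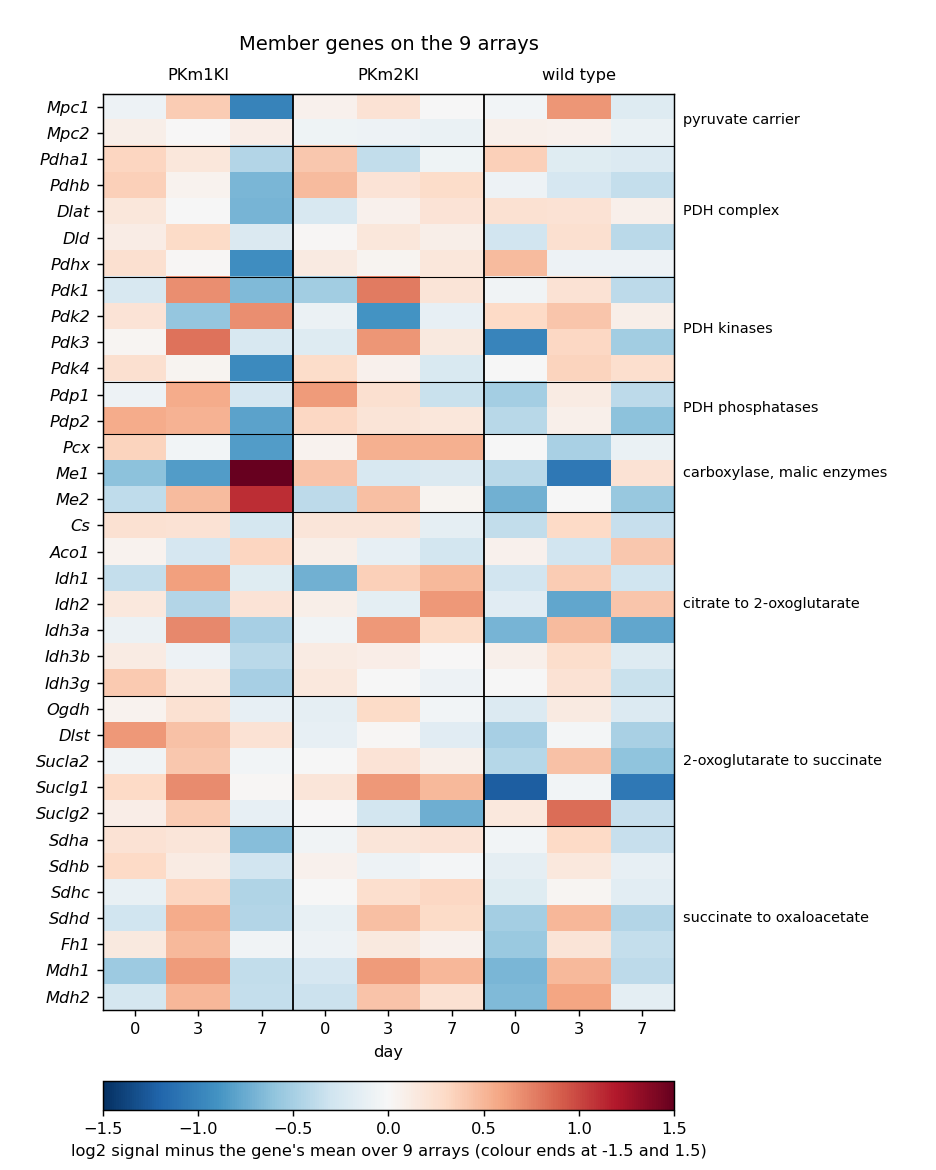
Log2 signal of the 35 members on the 9 arrays, each gene minus its own mean over the arrays, with rows grouped by role and columns by line (PKm1KI, PKm2KI, wild type) and day. Several members, Mdh1, Mdh2, Idh3a and Sdhd among them, are highest on day 3 in all 3 lines. On the PKm1KI day 7 array 14 of the 35 members have their lowest value.

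The group of genes from succinate to oxaloacetate held the largest day 3 difference of the members, that of a cytosolic enzyme. Mdh1, the cytosolic malate dehydrogenase of the malate-aspartate shuttle, had log2 signals of 13.14, 14.33 and 13.31 on days 0, 3 and 7 in PKm1KI, 13.43, 14.33 and 14.18 in PKm2KI and 13.00, 14.17 and 13.29 in wild type cells. Every day 3 array lay above every day 0 array, and day 7 was back near day 0 in PKm1KI and wild type but not in PKm2KI cells. The mean was 14.28 ± 0.09 on day 3 and 13.19 ± 0.22 on day 0 (SD, n = 3 lines), a log2 difference of 1.08 ± 0.22 (SE), or 2.12-fold, with adjusted p = 0.0507, which misses the threshold. Over the 24 alternative settings the difference kept its direction, lay between 0.80 and 1.26, and passed in 6. Some of these settings, such as the floors, filters and moderation, leave the difference itself unchanged.

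Mdh2, the mitochondrial malate dehydrogenase of the cycle itself, had log2 signals of 15.80, 16.56 and 15.71 on days 0, 3 and 7 in PKm1KI, 15.74, 16.49 and 16.29 in PKm2KI and 15.40, 16.65 and 15.91 in wild type cells. Its day 3 arrays lay above all others, by a fitted log2 difference from day 0 of 0.92 ± 0.22 (1.89-fold, adjusted p = 0.0721). Sdhd, a membrane anchor of succinate dehydrogenase, had log2 signals of 13.98, 14.83 and 13.83 in PKm1KI, 14.17, 14.73 and 14.56 in PKm2KI and 13.76, 14.77 and 13.84 in wild type cells. Here too the 3 day 3 arrays were the highest of the 9, 1.75-fold above day 0 (log2 difference 0.81 ± 0.22, adjusted p = 0.0909). On the pair of arrays that shared a slide, PKm2KI day 3 against day 0, the log2 differences were 0.89 for Mdh1, 0.75 for Mdh2 and 0.56 for Sdhd.

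The other members of this stretch moved less. The flavoprotein Sdha ranged over 0.93 log2 units (13.25 to 14.18), the iron-sulphur subunit Sdhb over 0.59 (14.43 to 15.02), the anchor Sdhc over 0.77 (12.14 to 12.91) and fumarase, Fh1, over 1.04 (12.68 to 13.72). The lowest array was PKm1KI day 7 for the 3 succinate dehydrogenase subunits named here and wild type day 0 for Fh1. The fitted day 3 difference from day 0 was 0.81 in Sdhd, 0.30 in Sdhc, 0.18 in Sdha and -0.01 in Sdhb. Differences between the 4 subunits of succinate dehydrogenase were not tested. By the fitted difference, 6 of the 7 genes between succinate and oxaloacetate were higher on day 3 than on day 0 (56.8% of all genes). By the same measure all 7 were lower on day 7 than on day 3 (8731 of all 15016 genes), none past the threshold. In single lines, Sdha was lower on day 3 than on day 0 in PKm1KI cells. Sdha, Sdhb and Sdhc were higher on day 7 than on day 3 in PKm2KI cells. With quantile normalization the counts were 5 and 6, Sdha being lower on day 3 (-0.10) and Sdhb higher on day 7 (0.10).

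**Figure D2:**
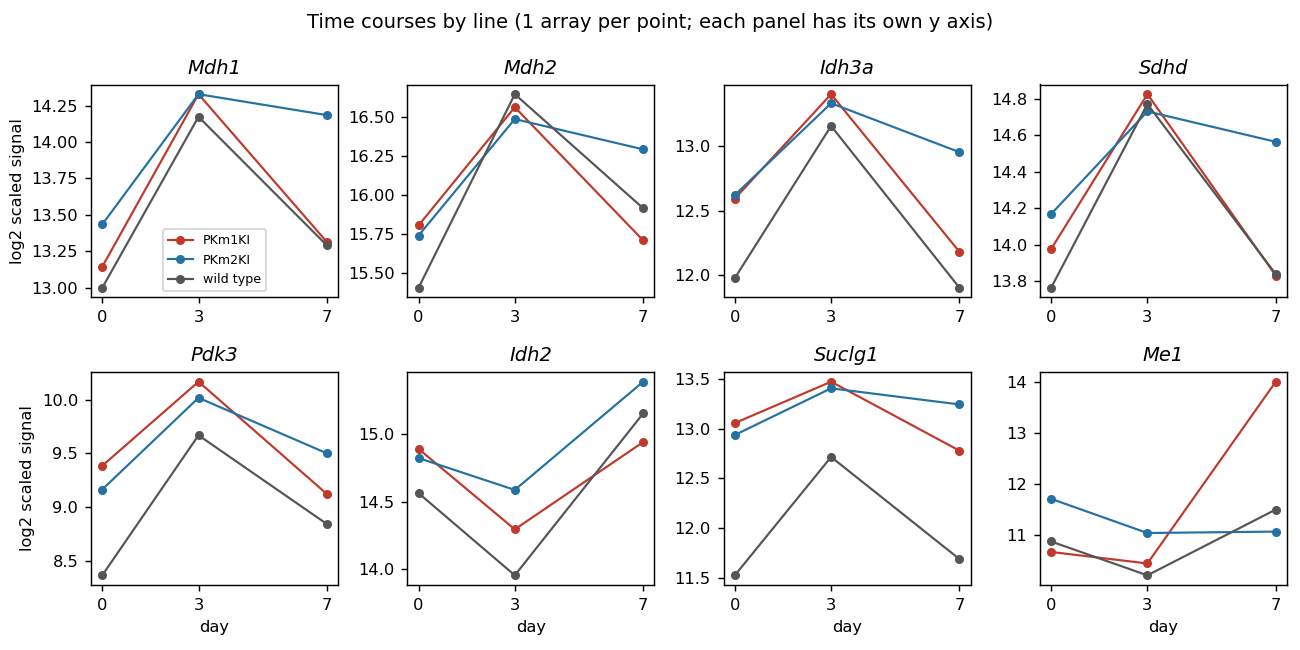
Log2 scaled signal on days 0, 3 and 7 in the PKm1KI, PKm2KI and wild type lines, 1 array per point, for 8 members with their own y axes. Mdh1, Mdh2, Idh3a and Sdhd are highest on day 3 in all 3 lines, Idh2 is lowest there, and Me1 is highest on the PKm1KI day 7 array at 14.00.

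Between citrate and 2-oxoglutarate, Idh3a, the catalytic subunit of the NAD-linked isocitrate dehydrogenase, and Idh2, the mitochondrial NADP-linked enzyme, ran in opposite directions. Idh3a had log2 signals of 12.59, 13.40 and 12.18 on days 0, 3 and 7 in PKm1KI, 12.62, 13.33 and 12.95 in PKm2KI and 11.98, 13.15 and 11.90 in wild type cells. The day 3 arrays were the highest of the 9, with fitted log2 differences of 0.90 ± 0.24 from day 0 (1.86-fold, adjusted p = 0.0848) and, for day 7 against day 3, of -0.95 ± 0.24 (adjusted p = 0.0872). Idh2 had log2 signals of 14.89, 14.30 and 14.94 in PKm1KI, 14.82, 14.59 and 15.39 in PKm2KI and 14.56, 13.95 and 15.15 in wild type cells. Day 7 lay above day 3 in every line, by 0.88 ± 0.20 on the log2 scale (1.84-fold, adjusted p = 0.0823), and day 3 lay below day 0 in every line, by a fitted -0.48 ± 0.20 (adjusted p = 0.193).

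The cytosolic Idh1 went with Idh3a on day 3 and not with Idh2. Its log2 signals were 8.05, 9.03 and 8.24 in PKm1KI, 7.70, 8.78 and 8.91 in PKm2KI and 8.13, 8.79 and 8.11 in wild type cells, 1.88-fold higher on day 3 than on day 0 (log2 difference 0.91 ± 0.28, adjusted p = 0.108). In the PKm2KI line it was still high on day 7. The partner subunits Idh3b (12.54 to 13.21) and Idh3g (13.82 to 14.71) ranged over 0.67 and 0.89 log2 units. Their fitted day 3 differences from day 0 were -0.01 and -0.06. Differences between the 3 subunits of this enzyme were not tested. Citrate synthase, Cs, ranged over 0.67 (14.42 to 15.10), and Aco1, the cytosolic aconitase that also acts as an iron-regulated RNA-binding protein, over 0.69 (6.30 to 6.99). By the fitted difference, 3 of these 7 genes were higher and 4 lower on day 3 than on day 0. On day 7 against day 3, 2 were higher and 5 lower. Over all genes 56.8% were higher in the first comparison and 41.9% in the second. With quantile normalization Cs was no longer higher on day 3 (-0.01).

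By the fitted difference, all 5 genes between 2-oxoglutarate and succinate were higher on day 3 than on day 0 (56.8% of all genes). In single lines, Dlst was lower on day 3 in PKm1KI cells (12.81, against 13.02) and Suclg2 in PKm2KI cells. All 5 were also lower on day 7 than on day 3 (8731 of all 15016 genes), none past the threshold. With quantile normalization the first count was 4, since Dlst turned (-0.08), and the second stayed 5. Suclg1, the alpha subunit shared by both succinyl-CoA synthetases, had log2 signals of 13.06, 13.47 and 12.78 on days 0, 3 and 7 in PKm1KI, 12.94, 13.41 and 13.24 in PKm2KI and 11.52, 12.72 and 11.69 in wild type cells. Day 3 was highest in each line and the wild type arrays were the 3 lowest, the day 3 difference from day 0 being 0.69 ± 0.24 on the log2 scale (adjusted p = 0.139). Suclg2, the GTP-forming beta subunit, had log2 signals of 9.71, 9.98 and 9.48 in PKm1KI, 9.61, 9.34 and 8.87 in PKm2KI and 9.77, 10.45 and 9.27 in wild type cells. It was lower on day 7 than on day 3 in every line (-0.71 ± 0.24, adjusted p = 0.116). The ATP-forming beta subunit Sucla2 ranged over 1.05 log2 units (12.08 to 13.13), with both ends in wild type cells, day 7 and day 3. Ogdh, which carries the dehydrogenase step of the 2-oxoglutarate dehydrogenase complex, ranged over 0.49 (12.60 to 13.09), the smallest range of these 5, and its dimmest of 3 probes moved the other way on day 3. Dlst, the transferase of the complex, ranged over 1.15 (11.87 to 13.02) and is described with the lines below.

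**Figure D3:**
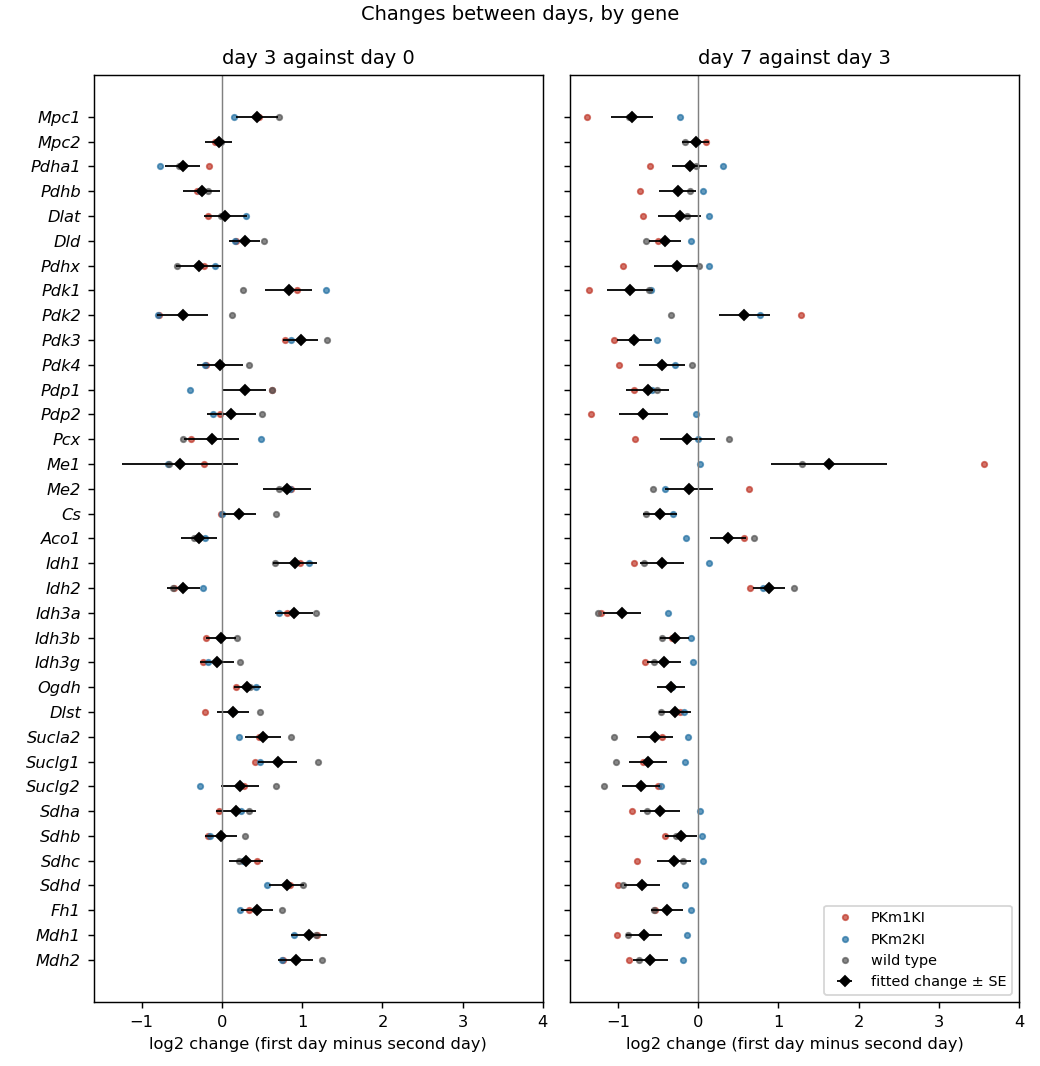
Fitted log2 difference with its SE (diamond and bar) and the difference in each of the 3 lines (points) for the 35 members, day 3 minus day 0 on the left and day 7 minus day 3 on the right. Mdh1 leads the left panel at 1.08 and has -0.68 on the right, where most members lie below 0, while Idh2 lies at -0.48 on the left panel and at 0.88 on the right.

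Upstream of the cycle, the subunits of the pyruvate carrier were well measured. Their ranges over the arrays were unlike, though the difference between them was not tested. Mpc1 had log2 signals of 11.49, 11.95 and 10.56 on days 0, 3 and 7 in PKm1KI, 11.63, 11.79 and 11.56 in PKm2KI and 11.52, 12.23 and 11.37 in wild type cells. The lowest value was on the PKm1KI day 7 array, and day 7 was lower than day 3 in every line (-0.82 ± 0.26 on the log2 scale, 1.77-fold, adjusted p = 0.11). Mpc2 had 10.79, 10.70 and 10.80 in PKm1KI, 10.64, 10.62 and 10.60 in PKm2KI and 10.78, 10.77 and 10.60 in wild type cells, a range of 0.19 log2 units that was the narrowest of the 35.

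The pyruvate dehydrogenase complex was lower on day 7 than on day 0 for 5 of its 5 genes (8025 of all 15016 genes were lower). The 3 other scalings kept the count of 5. The median fitted log2 difference of these 5 genes was -0.51, beside -0.04 over all genes. None passed the threshold. The lines differed: the median over the 5 genes was -0.86 in PKm1KI, 0.04 in PKm2KI and -0.27 in wild type cells, and in PKm2KI cells Dlat, Dld and Pdhx were higher on day 7 (by 0.44, 0.07 and 0.04). The PKm1KI value comes from the day 7 array with the high visceral endoderm marker sum, whose part in it was not tested. Pdha1, the catalytic alpha subunit that the kinases phosphorylate, had log2 signals of 12.25, 12.09 and 11.49 on days 0, 3 and 7 in PKm1KI, 12.33, 11.55 and 11.86 in PKm2KI and 12.28, 11.74 and 11.71 in wild type cells. Its day 0 arrays were the 3 highest of the 9, and day 7 was 1.51-fold below them (-0.60 ± 0.22, adjusted p = 0.298). On the pairs sharing a slide the day 7 difference was -0.76 in PKm1KI and -0.56 in wild type cells. Pdhb, the beta subunit, had log2 signals of 14.50, 14.18 and 13.45 in PKm1KI, 14.61, 14.34 and 14.41 in PKm2KI and 14.05, 13.88 and 13.78 in wild type cells, so that each line was highest on day 0.

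Dlat, the acetyltransferase core, had log2 signals of 10.46, 10.29 and 9.60 on days 0, 3 and 7 in PKm1KI, 10.06, 10.36 and 10.50 in PKm2KI and 10.53, 10.51 and 10.37 in wild type cells. It was lowest on the PKm1KI day 7 array. Pdhx, which ties the dihydrolipoyl dehydrogenase to the core, had 11.20, 10.98 and 10.04 in PKm1KI, 11.10, 11.01 and 11.14 in PKm2KI and 11.45, 10.89 and 10.90 in wild type cells. Dld, the dihydrolipoyl dehydrogenase that the 2-oxoglutarate dehydrogenase complex also uses, had 11.68, 11.85 and 11.35 in PKm1KI, 11.57, 11.73 and 11.64 in PKm2KI and 11.27, 11.80 and 11.15 in wild type cells. It was highest on day 3 in every line, which none of the other 4 subunits was in any line. Pdha1, Pdhb, Dlat and Pdhx had their lowest value of 9 on the PKm1KI day 7 array.

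The 4 kinases are given by isoform, and differences between the isoforms were not tested. Pdk3 had log2 signals of 9.38, 10.17 and 9.12 on days 0, 3 and 7 in PKm1KI, 9.16, 10.02 and 9.50 in PKm2KI and 8.36, 9.67 and 8.84 in wild type cells. Day 3 was highest in each line, 1.97-fold above day 0 (0.98 ± 0.22, adjusted p = 0.0603) with a fitted log2 difference of -0.80 ± 0.22 for day 7 against day 3 (adjusted p = 0.0933). Pdk1, the isoform known as a hypoxia-inducible gene, had 11.10, 12.04 and 10.68 in PKm1KI, 10.82, 12.12 and 11.53 in PKm2KI and 11.29, 11.55 and 10.94 in wild type cells. The day 3 difference from day 0 was 0.93 in PKm1KI, 1.30 in PKm2KI and 0.26 in wild type cells, and the fitted one was 0.83 ± 0.29 (adjusted p = 0.141).

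Pdk2, the most widely expressed kinase in adult tissues, had log2 signals of 7.48, 6.70 and 7.98 in PKm1KI, 7.19, 6.38 and 7.15 in PKm2KI and 7.58, 7.70 and 7.36 in wild type cells. Both knock-in lines were lowest on day 3, by -0.79 and -0.80 against day 0, while the wild type line differed by 0.12. Pdk4, induced by fasting in many tissues, had 8.57, 8.37 and 7.38 in PKm1KI, 8.60, 8.39 and 8.10 in PKm2KI and 8.32, 8.66 and 8.58 in wild type cells, lowest on the PKm1KI day 7 array. The phosphatases Pdp1 (7.72 to 8.87, range 1.15) and Pdp2 (8.60 to 9.96, range 1.36), which reactivate the complex, were both lower on day 7 than on day 3, by -0.63 ± 0.27 and -0.68 ± 0.31 (adjusted p = 0.173 and 0.186). A dimmer probe of Pdp1 gave the opposite sign, with a mean difference of 0.36.

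Pyruvate carboxylase, Pcx, had log2 signals of 11.71, 11.33 and 10.53 on days 0, 3 and 7 in PKm1KI, 11.43, 11.91 and 11.90 in PKm2KI and 11.37, 10.89 and 11.27 in wild type cells. PKm1KI cells were lowest on day 7, PKm2KI cells on day 0 and wild type cells on day 3, so the lines had no common course. Me2, the mitochondrial malic enzyme, had 10.26, 11.12 and 11.75 in PKm1KI, 10.25, 11.10 and 10.69 in PKm2KI and 9.93, 10.64 and 10.08 in wild type cells. Day 3 exceeded day 0 in each line by 0.72 to 0.85 log2 units (fitted 0.81 ± 0.30, adjusted p = 0.153), and only in PKm1KI cells was day 7 higher still.

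Me1, the cytosolic malic enzyme that makes NADPH for fatty acid synthesis, had the widest range of the members, 3.80 log2 units. Its log2 signals were 10.66, 10.44 and 14.00 on days 0, 3 and 7 in PKm1KI, 11.71, 11.04 and 11.06 in PKm2KI and 10.87, 10.21 and 11.50 in wild type cells. The PKm1KI day 7 array stood apart from the other 8, which lay between 10.21 and 11.71. It was 5.68-fold above the wild type day 7 array, a log2 difference of 2.51 that 305 of 15016 genes exceeded, and 10.1-fold above its own day 0 array, which shared its slide. All 3 Me1 probes showed it, with log2 differences from wild type day 7 of 2.51, 2.75 and 3.05. Me2 on the same pair differed by 1.67, or 3.18-fold, which 661 genes exceeded. Single arrays allow no test, and the additive fit gave Me1 a difference between PKm1KI and wild type of 0.84 ± 0.73 (adjusted p = 0.717), which turned to -0.20 without the PKm1KI day 7 array. That array also carried the visceral endoderm marker sum of 524166, against 10822.6 on the wild type day 7 array, with 10 of 10 markers well above background on both, and its pluripotency sum of 180701 was the lowest. The part of that cell type in the Me1 and Me2 values was not tested.

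The PKm1KI day 7 array was the low point for many other members. It held the lowest value of 14 of the 35 (40% of members, beside 25% of all genes), among them 4 genes of the pyruvate dehydrogenase complex, Mpc1, Pdk1, Pdk4, Pdp2, Pcx, Idh3b, Idh3g and 3 succinate dehydrogenase subunits. The wild type day 0 array held the lowest value of 11 (31.4%, beside 12.7% of all genes), including Mdh1, Mdh2, Sdhd, Fh1, Suclg1, Dlst and Pdk3. The highest values fell on the day 3 arrays of PKm1KI for 9 members (25.7%, beside 14.5% of all genes) and of wild type for 8 (22.9%, beside 17.3%). The PKm2KI day 3 array held the highest value of 3 members (8.57%, beside 7.54%).

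**Figure D4:**
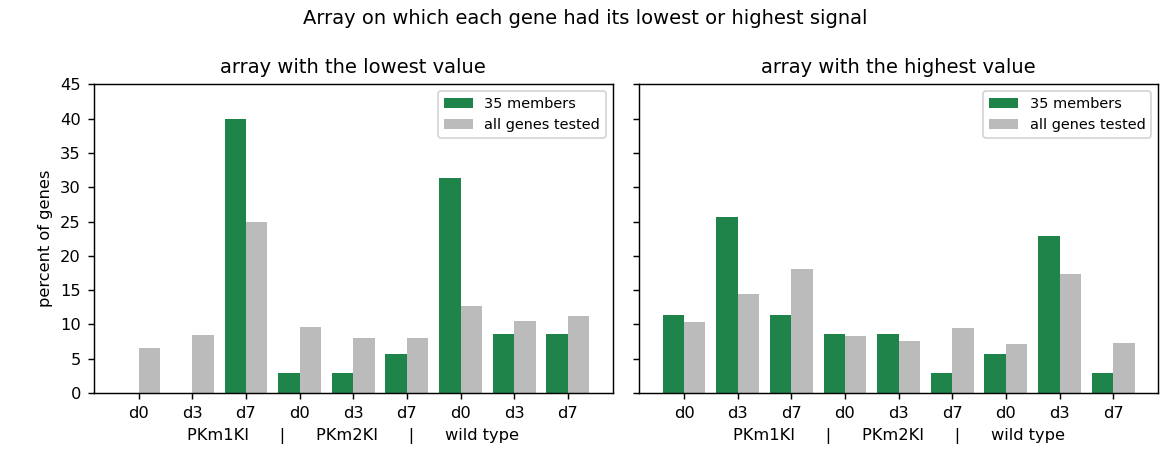
Percent of the 35 members and of all genes whose lowest (left) or highest (right) signal of the 9 fell on each array, by line and day. The PKm1KI day 7 and wild type day 0 arrays hold 40% and 31.4% of the members' lowest values, above the 25% and 12.7% of all genes.

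Comparing the lines asks whether the pyruvate kinase knock-in cells differed in this pathway from wild type cells, with the 3 days as repeats. Suclg1 was higher in both knock-in lines, and Dlst was highest in PKm1KI cells. Pdk3 was higher in both knock-in lines on each day. None of these passed the threshold, and most members differed little.

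Of PKm1KI against wild type, 2 genes passed (0.0133%) and 0 members, while 4 members, all higher, had an unadjusted p under 0.05 (6.38% of all genes were higher and 5.94% lower at that level). There were 26 members higher (74.3%, beside 55.6% of all genes) and 9 lower. The members' median was 0.09, beside 0.05 over all genes. The split became 17 to 18 with quantile normalization, 19 to 16 with the percentile over detected probes and 18 to 17 after normexp, and the median was 0.23 without the PKm1KI day 7 array and 0.04 without the PKm1KI day 0 or day 3 array. Of PKm2KI against wild type, 2 genes (0.0133%) and 0 members passed, and 3 members, all higher, had an unadjusted p under 0.05 (6.38% of all genes higher, 7.03% lower). There 27 members were higher (77.1%, beside 53.7% of all genes) and 8 lower. The members' median was 0.23, beside 0.04 over all genes. Under the 3 other scalings the higher members numbered 21 to 23, and with the slide as a block, or without the PKm2KI day 7 array, 21, with medians of 0.11 in both. Both comparisons use the same wild type arrays.

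For Suclg1, all 6 knock-in arrays lay above all 3 wild type arrays. The PKm1KI arrays were higher than the wild type array of the same day by 1.53, 0.76 and 1.09 log2 units on days 0, 3 and 7, a fitted difference of 1.13 ± 0.24 (2.18-fold, adjusted p = 0.173). In PKm2KI the differences were 1.41, 0.69 and 1.56, fitted 1.22 ± 0.24 (2.33-fold, adjusted p = 0.126). The day 0 pair of PKm2KI and wild type, with 1.41, shared a slide. With the slide as a block the fitted differences were 1.03 (adjusted p = 0.262) and 1.13 (adjusted p = 0.404), and over all 24 alternatives they lay between 0.92 and 1.35 and between 1.04 and 1.48. The beta subunits that pair with it had smaller or negative fitted differences, and their gap from Suclg1 was not tested. For PKm1KI and PKm2KI against wild type, Sucla2 had 0.30 ± 0.22 and 0.29 ± 0.22, and Suclg2 had -0.10 ± 0.24 and -0.55 ± 0.24.

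Dlst had log2 signals of 13.02, 12.81 and 12.58 on days 0, 3 and 7 in PKm1KI, 12.25, 12.38 and 12.20 in PKm2KI and 11.87, 12.34 and 11.88 in wild type cells. The 3 PKm1KI arrays were the highest of the 9, with a fitted log2 difference from wild type of 0.77 ± 0.20 (1.71-fold, adjusted p = 0.218). No pair of PKm1KI and wild type arrays of the same day shared a slide, and with the slide as a block the difference was 0.70 (adjusted p = 0.36). PKm2KI lay below PKm1KI on each day, by a fitted -0.53 ± 0.20 (adjusted p = 0.627), and by -0.43 on day 3, where both shared a slide. In that comparison 0 of 15016 genes (0%) and 0 members passed. At an unadjusted p under 0.05 there was 1 member, Dlst (4.73% of all genes were lower at that level). The members split 23 higher (65.7%, beside 49.3% of all genes) and 12 lower in PKm2KI. The split was 16 to 19 with the slide as a block. It was 14 to 21 without either the PKm1KI or the PKm2KI day 7 array, so no direction was held.

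Pdk3 was higher than in wild type by 1.02, 0.50 and 0.28 log2 units on days 0, 3 and 7 in PKm1KI (fitted 0.60 ± 0.22, adjusted p = 0.339) and by 0.80, 0.35 and 0.66 in PKm2KI (fitted 0.60 ± 0.22, adjusted p = 0.305). The values overlapped, since the wild type day 3 array exceeded some knock-in arrays of other days. Idh3a differed from wild type by 0.64, 0.18 and 1.05 in PKm2KI (fitted 0.62 ± 0.24, adjusted p = 0.333), and by 0.61, 0.25 and 0.28 in PKm1KI (fitted 0.38 ± 0.24, adjusted p = 0.596). Me2 in PKm1KI had 0.33, 0.47 and 1.67 (fitted 0.83 ± 0.30, adjusted p = 0.339), the last being the day 7 array described above. Over both comparisons with wild type, every array of the knock-in line lay above every wild type array for Dlst and Suclg1 in PKm1KI (2 members, beside 5.49% of all genes, with 0 below, beside 4.69%) and for Pdhb, Pdp2, Pcx and Suclg1 in PKm2KI (4 members, beside 7.93%), and below for Pdk2 in PKm2KI (1 member, beside 6.43%).

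**Figure D5:**
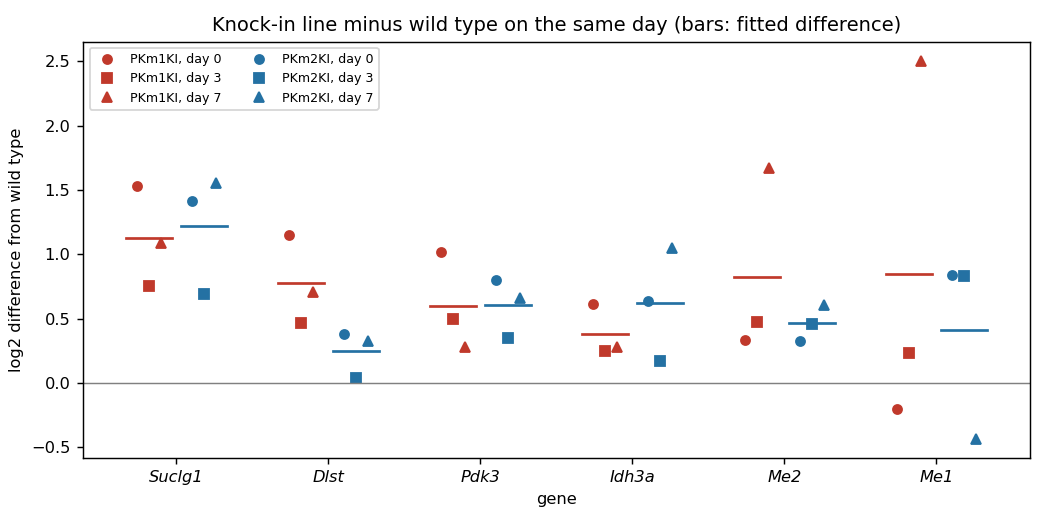
Log2 difference of the PKm1KI and PKm2KI arrays from the wild type array of the same day (points) and the fitted difference (bars) for 6 members. Suclg1 lies above 0 on every day in both knock-in lines, with fitted values of 1.13 and 1.22, and the Me1 bar of PKm1KI rests on its day 7 point at 2.51.

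Other genes of the surrounding pathway, a list of 34 with 30 measured, contained the only calls near the cycle. On day 3 against day 0, 1 of the 30 was called higher and 1 lower. Beside them, 4.05% of all genes passed in that comparison (1.85% higher and 2.2% lower), so the calls are no trait of this list. On day 3 against day 0, Gpt, the alanine aminotransferase that interconverts pyruvate and alanine, rose, with log2 signals on day 3 of 9.89, 9.80 and 9.82 in PKm1KI, PKm2KI and wild type cells, against 8.97, 8.97 and 8.66 on day 0. The difference was 0.97 ± 0.18 (1.96-fold, adjusted p = 0.0423). Pck2, the mitochondrial phosphoenolpyruvate carboxykinase that turns oxaloacetate into phosphoenolpyruvate, fell, with 5.26, 6.37 and 5.50 on day 3, against 8.35, 7.65 and 7.74 on day 0 (log2 difference -2.21 ± 0.34, adjusted p = 0.0313). Both probes were well above background on all 9 arrays, and day 7 lay between the other days, at 7.14, 7.15 and 7.18 for Pck2 and 9.29, 9.29 and 8.91 for Gpt. Over 24 alternatives Gpt passed in 12, with adjusted p between 0.0284 and 0.367, and Pck2 in 14, with adjusted p between 0.0211 and 0.272; with the slide as a block they had 0.0657 and 0.051. The fibroblast marker sums given above also differed between these days in all 3 lines, and their part was not tested.

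Of the 30 genes, 25 were higher and 5 lower on day 3 than on day 0 (median 0.40). Over all genes 56.8% were higher there, with a median of 0.09. On day 7 against day 3, 4 of the 30 were higher and 26 lower (median -0.36). Over all genes 41.9% were higher there, with a median of -0.13. Under the 3 other scalings 21 of the 30 were higher on day 3 than on day 0 and 24 lower on day 7 than on day 3. No gene of this list was called in the other 5 comparisons. Of 15 hypoxia target genes 14 were measured and 0 called in any comparison. Over all genes 55.6% were higher in PKm1KI than in wild type cells, with a median of 0.05. All 14 hypoxia target genes were higher in that comparison, and 12 or 13 under other scalings. The median fitted difference of the 14 was 0.59. By day that median was 0.46 on day 0, -0.06 on day 3 and 1.30 on day 7, so day 3 did not share the direction. The day 7 value again comes from the PKm1KI array with the high visceral endoderm marker sum, whose part in it was not tested. Of 15 genes of fat oxidation 11 were measured and 0 called.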

How the data were processed

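The 9 RNA samples came from RNeasy columns, and their Cy3-labelled cRNA (Low Input Quick Amp kit) was read on 1 one-colour Agilent array each, per the labels' protocols. The deposited intensities are processed signals, which the scanner software, Agilent Feature Extraction 10.10 per the submitters' processing notes, had background-subtracted, as the file headers say. A deposited table of the same intensity values served as an alternative. From 62976 spots, 3671 control spots and flagged spots (133 to 225 an array) were left out. Spots of a probe were averaged, leaving 55681 probes, of which 27235 had 1 gene symbol through RefSeq and 28446 had none. Signals were scaled to each array's 75th percentile, set to a floor of 5 and taken as log2. The brightest probe stood for a gene, and 15016 of 20660 named genes had a probe well above background on at least 3 arrays.

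An additive model of line and day, with 4 residual degrees of freedom, was fitted with limma 3.58.1 (lmFit and eBayes) in R 4.3.3, and p-values were adjusted by Benjamini and Hochberg over all genes, with a threshold of 0.05. The code was tested on simulated data. Standard errors of the members lay between 0.17 and 0.73, against a median of 0.26 over all genes for the contrasts of days. The number of arrays limits the precision, and the 6 contrasts share arrays. Motifs and figures were made in Python 3.11.15 (matplotlib 3.10.9, pandas 2.3.3, numpy 2.4.6).

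All 35 members are named. Values on all 9 arrays are given for the carrier, the pyruvate dehydrogenase complex, its kinases and the 12 members of widest range, and for some others chosen after their values were seen (Mdh1, Mdh2, Sdhd, Idh1 and Dlst). From 3 lists of other genes those called are named, up to 4 a contrast. The members, lists and tests were chosen with earlier results of these data known. Alternatives were other scalings, background correction (normexp, offset 50, on the deposited median intensities), filters, floors of 1 and 20, the mean over probes, moderation, the slide as a block, the arrays of a contrast alone, an adjusted p of 0.1, and leaving out each array, line or day.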

Additional observations from a re-analysis of the deposited data

Results flagged for a closer look

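In Me1 the log2 difference of day 7 from day 0 was 3.34 in PKm1KI cells and ran the other way, at -0.64, in PKm2KI cells. In Me2 the log2 difference of day 7 from day 3 was 0.63 in PKm1KI cells and -0.56 in wild type cells. Both rest on opposite signs on single arrays, and the difference between the lines was not tested.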

How the results depend on the processing

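Over 33 results on single genes and 24 alternatives each, 746 of 792 values kept their direction and side of the threshold, 22 newly passed, 22 (of Gpt and Pck2) no longer did, and 2 reversed. Only Gpt and Pck2 passed as reported, so most of the 746 are results that again fell short of the threshold. Some settings also leave the difference unchanged, so the count of 746 is no measure of how firm these results are. The count of members passing on day 3 against day 0, 0 as reported, was 1 with quantile normalization and 1 after normexp (Mdh2 in both), 1 with a floor of 20 (Mdh1), 2 among genes well above background on all 9 arrays (Pdk3, Mdh1), 3 from the 6 arrays compared (Pdk3, Idh1, Mdh1), 4 with trended and robust moderation (Pdk3, Idh3a, Mdh1, Mdh2) and 5 at an adjusted p of 0.1. On day 7 against day 3 it was 3 at that threshold (Pdk3, Idh2, Idh3a). Leaving out arrays or lines gave 0 to 4 members in each of these comparisons, 4 without the PKm2KI day 7 array in both. The members' median on day 7 against day 3 was -0.085 after normexp, against -0.41 as reported. Leaving out arrays gave 0.035 to 0.23 for the median of PKm1KI against wild type, highest without the PKm1KI day 7 array. Me1 on day 7 against day 0 lay between -0.0078 (without PKm1KI) and 1.98 (without PKm2KI), and in PKm1KI against wild type between -0.20 (without the PKm1KI day 7 array) and 1.48 (without the PKm1KI day 0 array). Over all genes, 608 passed on day 3 against day 0, beside 149 with no filter, 1008 with trended and robust moderation, 1433 from 6 arrays and 0 to 1260 leaving out arrays or lines. On day 7 against day 3, 981 passed with the slide as a block, 260 with trended and robust moderation and 71 with the stricter filter, against 0 as reported. Some alternatives use fewer genes or arrays. The causes of these shifts were not tested. The reported fit already pairs days within lines, and lines within days, through its terms for line and day. Beyond that pairing, no paired analysis was possible because the labels carry no replicate numbers.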
